A study of Mus musculus with 8 samples.

Results

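The collagen and laminin chain genes were taken as every gene symbol made of Col, a number, a and a number, or of Lam, a letter a, b or c and a number. This gave 53 genes of the 26608 listed: 6 Col4 chains, 11 laminin chains, 9 fibrillar collagen chains (Col1, Col2, Col3, Col5 and Col11) and 27 other collagen chains. The choice used no measured value. Transcript tags were counted in neural tube that had been cut by laser from frozen sections of day 8.5 FVB mouse embryos. Closed neural tube came from just behind closure site 1, where the folds have met, and open neural tube from just in front of it. There were 2 libraries in each of 4 groups: closed tissue of diabetic dams (libraries 15 and 16), open tissue of diabetic dams (13 and 14), closed tissue of normal dams (11 and 12) and open tissue of normal dams (09 and 10). All embryos were FVB at the same stage, so dam and region were the only labelled differences. The labels used here do not say how the dams became diabetic, how many embryos went into a library, or whether open and closed tissue shared embryos. The p-values therefore measure the spread between these libraries, which may be partly technical.

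Collagens are built from chains wound into a triple helix, and each laminin from an alpha, a beta and a gamma chain. Col4 chains and laminins form the separate polymer networks of the basement membrane, the sheet on which the neural epithelium, the surface ectoderm and the vessels of the early embryo rest. Fibrillar chains form the banded fibrils of connective tissue and cartilage, and are known mainly as products of mesenchyme, sclerotome and notochord.

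The assay read 1 short tag for each transcript, which the kit anchors at a CATG near the 3′ end. A count therefore needed no division by transcript length, although tags of different genes may be recovered unequally. For orientation, the 26 bases from the last CATG of the longest protein-coding transcript were read from GENCODE release M21 (GRCm38). All 53 genes had such a transcript, 46 had a tag of the full 26 bases, and none of these 46 tags occurred in a transcript of another gene. The other 7 genes, among them Col18a1, Col1a1 and Col4a5, had their last CATG closer to the annotated end. The tags of the chains that the results turn on are given 5′ to 3′, with the anchoring CATG in capitals. They show that the neighbours Col4a1 and Col4a2, and the fibrillar chains Col1a2, Col3a1 and Col2a1, are told apart by sequence.
Col4a1: CATGgtgtctgataatgagccctgtg
Col4a2: CATGgctctagccaaacccacagcaa
Col4a6: CATGaagcgctcccttgcaggtgatt
Lamc1: CATGgaattttcctttgattccaact
Lama5: CATGggcagggacacactccggctgg
Col1a2: CATGgttccaaagaagtcttgtttct
Col3a1: CATGccacaggatcttctcttctttt
Col2a1: CATGgacattggaggggctgaacagg
These are the tags that the reference predicts. Which tags the authors counted for a gene is not given in the sources used here.

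Library totals ran from 5041586 to 16655583 counts. Levels are counts scaled to the library total (CPM), and averages are given with their SD. Differences are log2 fold changes from edgeR with their standard errors. Over all 11779 genes tested, edgeR's quasi-likelihood test called 0.00% at an adjusted p below 0.05 in each of 7 comparisons: closed against open tissue, diabetic against normal dams, the interaction of dam with region, and the 4 differences between single groups. Diabetic open library 13 stood apart from the others in cell type markers. Its 7 neural progenitor markers summed to 112 CPM, against 772 to 1087 CPM in the other 7 libraries. Its 11 markers of paraxial mesoderm and mesenchyme summed to 1727 CPM (129 to 725 CPM elsewhere).

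Of the 53 chains, 39 had a count in at least 1 library, 34 passed the filter on low counts and 17 had a count in all 8 libraries. The 14 chains without any count were Col4a3, Col4a4, Lama3, Lamc3, Col6a3, Col6a4, Col6a6, Col8a1, Col9a2, Col10a1, Col14a1, Col17a1, Col25a1 and Col28a1. A count of 0 still allows a level of up to 0.18 CPM in library 13, the deepest, and 0.595 CPM in library 15, the shallowest, by counting error alone (3 counts). Of these 14 chains, 13 had a predicted tag of full length, so the reference shows no lack of a site for them. All chains together made up 796 to 1240 CPM. Their most abundant gene was Col18a1, a basement membrane collagen whose end is released as endostatin, with 65.8% to 93.6% of the counts of the other collagen chains.

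The Col4 chains are the scaffold of the basement membrane. Their summed level was 199 and 223 CPM in diabetic closed tissue (libraries 15 and 16), 304 and 164 CPM in diabetic open tissue (13 and 14), 284 and 245 CPM in normal closed tissue (11 and 12) and 176 and 236 CPM in normal open tissue (09 and 10). The libraries of different groups overlapped throughout, and the highest was 1.85 times the lowest. Closed tissue averaged 238 ± 36.3 CPM and open tissue 220 ± 64.1 CPM. Diabetic dams averaged 222 ± 59.3 CPM and normal dams 235 ± 44.8 CPM (SD, n = 4 each).

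Col4a1, the more abundant chain of the common alpha1-alpha2 heterotrimer, was among the steadiest members. It stood at 118 and 185 CPM in diabetic closed libraries 15 and 16, and diabetic open libraries 13 and 14 had 220 and 119 CPM. Normal closed libraries 11 and 12 had 205 and 137 CPM, and normal open libraries 09 and 10 had 120 and 149 CPM. No group stood apart. The log2 fold change was 0.14 (SE 0.27) for closed against open and 0.07 (SE 0.27) for diabetic against normal dams, so that a change of 1 on the log2 scale lies more than 3 standard errors away from either estimate.

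Col4a2, its partner chain, did not follow Col4a1. Diabetic open libraries 13 and 14 had 5.46 and 6.80 CPM. The gene was at 19.4 and 20.8 CPM in diabetic closed libraries 15 and 16, at 22.8 and 20.6 CPM in normal closed libraries 11 and 12, and at 18.6 and 35.5 CPM in normal open libraries 09 and 10. Both diabetic open libraries thus lay below every other library. The same 2 libraries were the highest in primitive blood markers, of which 6 of 7 were detected and Hbb-y was at 0. These summed to 924 and 1010 CPM in libraries 13 and 14, to 4.36 and 210 CPM in diabetic closed libraries 15 and 16, and to 0.296 to 63.3 CPM in normal dams. Nearly all of this was 1 gene, Hba-x, at 891 and 994 CPM in libraries 13 and 14 and 203 CPM in library 16. The part of blood cells in the Col4a2 level was not tested. In open tissue the difference between diabetic and normal dams was -2.14 (SE 0.69, unadjusted p = 0.0114, edgeR adjusted p = 0.631), which does not pass over all genes. Without library 13 it was -1.99 (SE 0.89, adjusted p = 0.558). Of all genes, 3.26% had an unadjusted p below 0.05 on the lower side in this comparison and 3.96% on the higher side.

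The genes Col4a1 and Col4a2 lie head to head, with annotated starts 21 bases apart in RefSeq (GRCm38.p6). Their count ratio can be read within a library, free of depth. Col4a1 had 40.3 counts for each Col4a2 count in library 13 (95% counting interval 32.8 to 50.2) and 17.4 in library 14 (13.3 to 23.2), both open tissue of diabetic dams. The ratio was 6.06 and 8.89 in diabetic closed libraries 15 and 16, and 9.0 and 6.65 in normal closed libraries 11 and 12. It was 6.47 and 4.19 in normal open libraries 09 and 10. The 2 diabetic open ratios lay above the intervals of the 6 other libraries, whose highest upper bound was 10.9. The intervals are Clopper-Pearson and cover counting error only. The ratio was picked after the values were seen and has no test. The surplus of Col4a1 tags over Col4a2 tags in all 8 libraries can also come from unequal tag recovery, which was not tested.

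**Figure D1:**
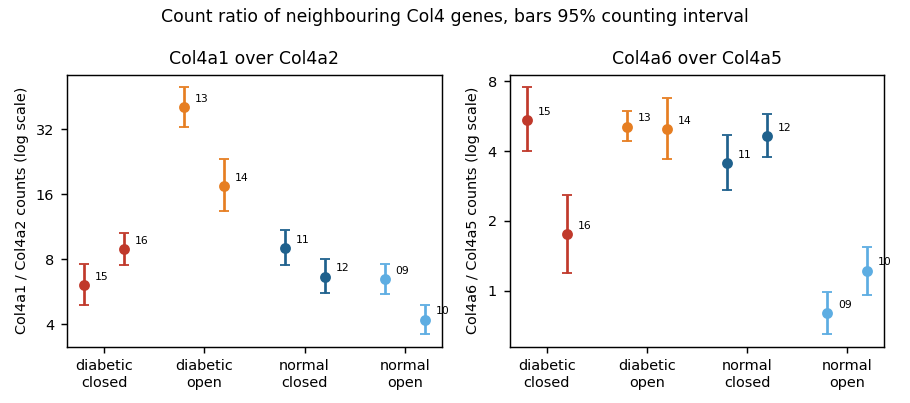
Counts of Col4a1 per count of Col4a2 (left) and of Col4a6 per count of Col4a5 (right) in each library, on log axes, with bars for the 95% counting interval and library numbers beside the points. On the left the diabetic open libraries 13 and 14 sit at 40.3 and 17.4 and the other 6 between 4.19 and 9.0. On the right the normal open libraries sit at 0.80 and 1.22 and the other 6 between 1.75 and 5.44. The interval of normal open library 10 (0.96 to 1.55) overlaps that of diabetic closed library 16 (1.19 to 2.60). Col4a5 had no predicted tag of full length, and this ratio has no test either.

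Col4a5 and Col4a6, the X-linked chains that share a further heterotrimer, start 1343 bases apart. Col4a5 was at 9.52 and 6.14 CPM in diabetic closed, 12.7 and 6.45 CPM in diabetic open, 12.3 and 15.5 CPM in normal closed and 20.4 and 23.1 CPM in normal open libraries. Its 3 highest values were in normal dams, and library 11 (12.3 CPM) lay just below library 13 (12.7 CPM). The mean was 8.71 ± 3.08 CPM in libraries of diabetic dams against 17.8 ± 4.85 CPM in those of normal dams (SD over 4 libraries each). The log2 fold change was -1.02 (SE 0.56, edgeR adjusted p = 0.999). Xist, the RNA of the silenced X chromosome, stood at 301 CPM in library 10 and 297 CPM in library 12, and at most at 4.27 CPM elsewhere. Both are libraries of normal dams, and the part of embryo sex in the Col4a5 levels was not tested. Col4a6 ranged more widely. It was at 51.8 and 10.7 CPM in diabetic closed, 65.0 and 32.1 CPM in diabetic open, 43.6 and 72.3 CPM in normal closed and 16.4 and 28.2 CPM in normal open libraries. The lowest of these, library 16, and a level of 51.8 CPM in library 15 belong to the same group.

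The laminins gave fewer counts than the Col4 chains. Summed over 11 genes they reached 72.6 and 81.2 CPM in diabetic closed, 116 and 67.2 CPM in diabetic open, 55.0 and 84.6 CPM in normal closed and 90.1 and 83.6 CPM in normal open libraries. The groups overlapped. Closed tissue averaged 73.3 ± 13.2 CPM and open tissue 89.4 ± 20.5 CPM, and diabetic dams 84.4 ± 22.1 CPM and normal dams 78.3 ± 15.8 CPM (SD, n = 4 each).

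Lamc1, the gamma chain of most laminins, supplied 60.7% to 93.2% of the laminin counts in each library. It was at 44.6 and 54.1 CPM in diabetic closed libraries 15 and 16, and diabetic open libraries 13 and 14 had 89.9 and 40.8 CPM. Normal closed libraries 11 and 12 had 38.8 and 58.2 CPM, and normal open libraries 09 and 10 had 84.0 and 56.3 CPM. The 2 highest values were open libraries of either dam, but their group partners lay among the closed libraries. The log2 fold change was -0.43 (SE 0.32) for closed against open and -0.06 (SE 0.32) for diabetic against normal dams.

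Among alpha chains, Lama5 of the widespread later embryonic laminin was the most abundant. It stood at 18.4 and 14.5 CPM in diabetic closed, 14.2 and 17.7 CPM in diabetic open, 10.9 and 20.1 CPM in normal closed and 2.86 and 14.3 CPM in normal open libraries. Library 09 alone was low, and the other 7 lay between 10.9 and 20.1 CPM. Lama1, the alpha chain of the earliest embryonic basement membranes, gave almost no tags. It reached 8.12 CPM in diabetic open library 14, 2.65 CPM in diabetic closed library 16 and 2.37 CPM in normal closed library 12, and at most 0.178 CPM in the other 5 libraries. Lama2, best known from muscle and nerve, was at most 5.82 CPM and at 0 in 3 libraries.

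Tags of beta chains were scarce beside those of Lamc1, although each laminin holds 1 chain of each kind. Unequal tag recovery can also give such a gap, and was not tested. The predicted tags of Lamb1, Lamb2 and Lamb3 start 734, 780 and 222 bases from the annotated end, and that of Lamc1 187 bases from it. Lamb1, the usual partner of Lamc1, had 59 counts in all. It stood at 1.79 and 2.93 CPM in diabetic closed libraries 15 and 16 and at 2.76 CPM in normal open library 09, with 1 count in library 11 and none in the other 4. Its mean of 7.38 counts lies under the limit of 10 counts used to pick the named chains, and it is given because of its role. Lamb2 ranged from 0.395 to 7.23 CPM. Its highest value was in normal open library 10 and its lowest in normal open library 09. Lamb3, a beta chain known from epithelia, reached at most 2.28 CPM.

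**Figure D2:**
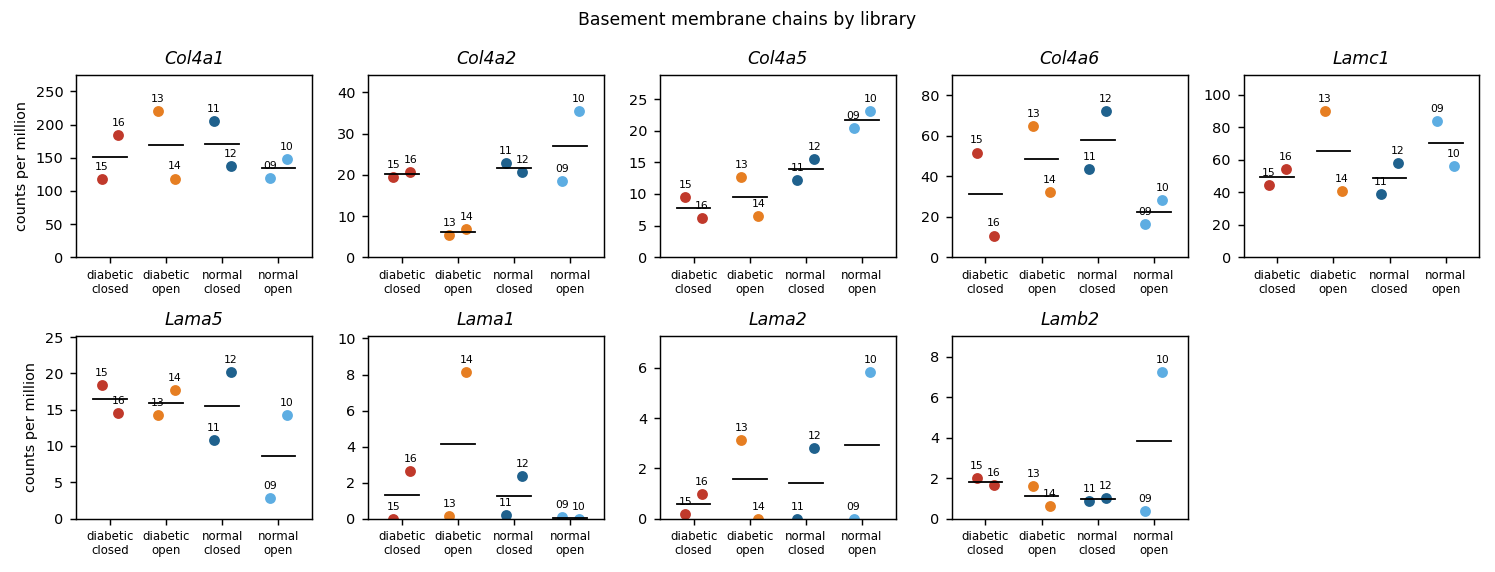
Level of 9 basement membrane chains with a mean of at least 10 counts, in CPM, with 1 numbered point for each library and a line at the mean of the 2 libraries of a group. Col4a1 lies between 118 and 220 CPM in all groups, while Col4a2 is lowest in the 2 diabetic open libraries (5.46 and 6.80 CPM).

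No basement membrane chain passed the edgeR test in either comparison. For closed against open tissue, 3 of 4 tested Col4 chains had a positive fold change (median 0.28) and 5 of 8 laminins (median 0.81), beside 6539 of 11779 genes tested (median 0.07). For diabetic against normal dams the counts were 2 of 4 (median -0.48) and 4 of 8 (median 0.22), beside 6208 of 11779 genes (median 0.04). No Col4 or laminin chain had an unadjusted p below 0.05 in these comparisons. Over all genes, 2.31% had one on the higher and 1.01% on the lower side for closed against open tissue, and 2.97% and 1.58% for diabetic against normal dams. The median standard error was 0.56 for the Col4 chains, against 2.51 (closed against open) for the laminins, so that for most laminin genes a change of several units on the log2 scale was not detectable at this depth and spread.

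The fibrillar chains varied more between libraries than the basement membrane chains. Their summed level was 103 and 105 CPM in diabetic closed libraries 15 and 16, 385 and 85.8 CPM in diabetic open libraries 13 and 14, 107 and 70.9 CPM in normal closed libraries 11 and 12, and 43.8 and 47.5 CPM in normal open libraries 09 and 10. The highest was 8.77 times the lowest, against 1.82 times for Col4 and laminin chains together. Without library 13 these ratios were 2.45 and 1.47. Library 13 stood far above the next, normal closed library 11, and both normal open libraries lay below the other 6. Diabetic dams averaged 170 ± 144 CPM and normal dams 67.4 ± 29.2 CPM (SD over 4 libraries each). The log2 ratio of these averages was 1.33, and 0.54 without library 13.

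Col1a2, a chain of type I collagen, the main fibril of connective tissue, carried the largest part of this. It was at 49.0 and 32.9 CPM in diabetic closed libraries 15 and 16, 195 and 20.2 CPM in diabetic open libraries 13 and 14, 60.9 and 14.8 CPM in normal closed libraries 11 and 12, and 8.29 and 12.3 CPM in normal open libraries 09 and 10. The diabetic open group spanned nearly the whole range of the data. The normal open libraries were the lowest of all. Col1a1, the other type I chain, was at 4.76 and 18.3 CPM in diabetic closed, 56.1 and 3.58 CPM in diabetic open, 9.79 and 1.78 CPM in normal closed and 4.15 and 9.17 CPM in normal open libraries. It was thus highest in the same library as Col1a2, but its next highest was library 16, not library 11.

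Col3a1, the fibrillar chain of soft and vascular connective tissue, was found mostly in library 13. It was at 4.36 and 5.02 CPM in diabetic closed libraries 15 and 16, 88.9 and 1.67 CPM in diabetic open libraries 13 and 14, and 3.21 CPM in normal closed library 11. The other 3 libraries of normal dams had no count. All 4 libraries of diabetic dams had Col3a1 counts, but library 14 of these lay below library 11 of the normal dams. In open tissue the 1495 counts of diabetic dams against 0 of normal dams put the level at least 314-fold higher by counting error (3 counts over the group), a bound that rests on library 13. Col5a2, a chain of the fibrils that type I and III collagen form, was at 8.47 CPM in library 13, 2.65 CPM in library 10, 1.78 CPM in library 11 and at most 0.14 CPM in the other 5.

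**Figure D3:**
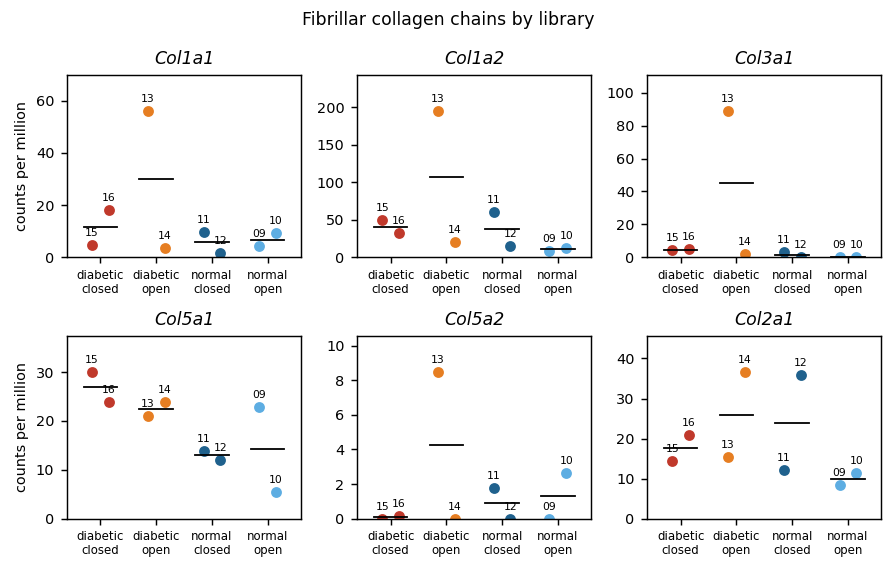
Level of the 6 fibrillar chains with a mean of at least 10 counts, in CPM, with 1 numbered point for each library and a line at the mean of the 2 libraries of a group. Col1a1, Col1a2, Col3a1 and Col5a2 are highest in diabetic open library 13, while Col5a1 and Col2a1 are not.

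Col5a1 and Col2a1 did not share this pattern. Col5a1, which starts fibrils together with type I collagen, was at 30.0 and 23.9 CPM in diabetic closed, 21 and 23.9 CPM in diabetic open, 13.9 and 12 CPM in normal closed and 22.9 and 5.47 CPM in normal open libraries. Libraries of diabetic dams lay within 21 to 30.0 CPM, and only library 09 of normal dams reached that range. Diabetic dams averaged 24.7 ± 3.77 CPM against 13.6 ± 7.20 CPM for normal dams, and the log2 fold change was 0.83 (SE 0.52, edgeR adjusted p = 0.999). Col2a1, the collagen of cartilage and of the notochord, was at 14.5 and 20.9 CPM in diabetic closed, 15.4 and 36.5 CPM in diabetic open, 12.1 and 35.8 CPM in normal closed and 8.39 and 11.3 CPM in normal open libraries. Its 2 highest libraries, 14 and 12, belonged to different groups, and library 13 was near the middle.

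The type XI chains were close to the floor. Col11a1, a chain of cartilage fibrils, had 60 counts in closed and none in open tissue, at least 33.2-fold higher in closed tissue by counting error. These counts came from 3 of the 4 closed libraries, at 0.397, 3.77 and 5.52 CPM in libraries 15, 16 and 11. Its edgeR p was 0.0285 before and 1.00 after adjustment. Col11a2 had none with diabetic and 57 with normal dams, at least 25.1-fold lower with diabetic dams, from libraries 10, 12 and 09 (6.53, 2.81 and 0.0987 CPM). Its p was 0.0357 before and 0.999 after adjustment. Both were picked after their values were seen. Each passed the filter on low counts only through libraries of its higher group. Their p-values therefore give no support for a difference. Col5a3 had 25 counts in library 12 and 3 in library 16.

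For closed against open tissue, 4 of 8 tested fibrillar chains had a positive fold change (median -0.02), with 1 at an unadjusted p below 0.05 on the higher side (Col11a1). For diabetic against normal dams 5 of 8 were positive (median 0.65), with 1 at an unadjusted p below 0.05 on the lower side (Col11a2). None passed in edgeR. The limit from the filter given above holds for Col11a1 and Col11a2. With all 8 libraries it also holds for Col3a1 between dams, since that gene passed the filter only through libraries of diabetic dams. Col1a2 had log2 fold changes of 0.26 (SE 0.90) and 1.73 (SE 0.91), and Col3a1 of -0.14 (SE 3.97) and 4.85 (SE 2.34) in these comparisons. For closed against open tissue the sign of Col3a1 turned to 1.5 in DESeq2, and that of Col1a2 to -0.33 in limma-voom. Without library 13, the closed against open value was 1.56 (SE 0.55, unadjusted p = 0.0136, edgeR adjusted p = 0.933) for Col1a2 and 3.66 (SE 2.54, adjusted p = 0.933) for Col3a1. For diabetic against normal dams it was 0.46 (SE 0.52, unadjusted p = 0.389) for Col1a2 and 3.24 (SE 2.33, unadjusted p = 0.188) for Col3a1 without this library. Over all libraries left out in turn, the dam difference ran from 0.46 to 2.56 for Col1a2. The sign of the summed fibrillar difference between regions turned with library 13, at -0.54 with it and 0.71 without it on the log2 scale.

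The clearest fibrillar difference was between diabetic and normal dams in open tissue. Col1a2 averaged 107 ± 123 and 10.3 ± 2.87 CPM there (SD, n = 2 each), with a log2 fold change of 3.38 (SE 1.00, unadjusted p = 0.00698). Neither Col1a2 nor Col3a1 passed in edgeR (adjusted p = 0.598 each). DESeq2 called 3 of the 34 tested chains in this comparison: Col1a2 (adjusted p = 0.0177), Col3a1 (0.000567) and Col9a1 (0.00721). It called 1.91% of all genes there. Without library 13 the Col1a2 difference fell to 0.96 (SE 0.81, edgeR adjusted p = 0.778), and DESeq2 called none of the 3, with adjusted p = 0.865 for Col1a2 and 0.0562 for Col9a1, and none given for Col3a1. Without library 14 the edgeR log2 fold change of Col1a2 was 4.21 (SE 0.72). Leaving out library 14 leaves library 13 alone in its group, and it is then assumed to vary as the other groups do.

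Markers of mesenchyme followed the fibrillar chains only in part. The mesoderm and mesenchyme markers, all 11 of which were detected, summed to 725 and 676 CPM in diabetic closed libraries 15 and 16, 1727 and 303 CPM in diabetic open libraries 13 and 14, 382 and 247 CPM in normal closed libraries 11 and 12, and 129 and 367 CPM in normal open libraries 09 and 10. Library 13 was highest and library 09 lowest in both sums, but the order of the others differed. Library 11 had the next highest fibrillar sum (107 CPM) but lower marker sums than libraries 15 and 16. Library 10, with 47.5 CPM of fibrillar chains, had a higher marker sum than libraries 12 and 14. The endothelial markers, of which 11 of 12 were detected and Erg was at 0, summed to 352 CPM in library 13, 79.3 to 145 CPM in the other 3 libraries of diabetic dams and 40.6 to 78.5 CPM with normal dams. The notochord and floor plate markers, of which 5 of 6 were detected and Noto was at 0, summed to 7.99 CPM in library 13 and 25.1 to 93.3 CPM elsewhere. Fewer cells of a type and less RNA for each cell cannot be told apart in such bulk samples, and the part of these cells in the collagen levels was not tested.

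**Figure D4:**
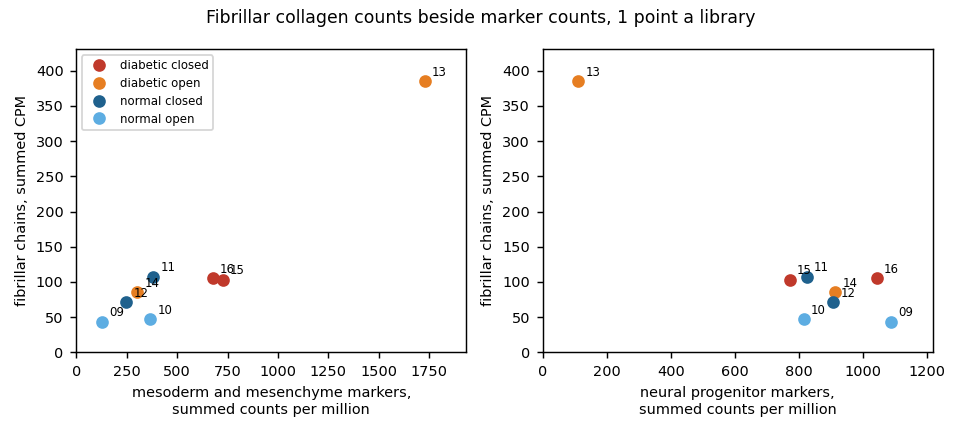
Summed level of the 9 fibrillar chains against the summed level of 11 mesoderm and mesenchyme markers (left) and of 7 neural progenitor markers (right), both in CPM, with 1 numbered point for each library. Library 13 lies alone at 385 CPM of fibrillar chains, with 1727 CPM of mesenchyme and 112 CPM of neural markers, and the other 7 libraries lie between 43.8 and 107 CPM of fibrillar chains.

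The interaction asks whether the region difference depends on the dam. Of the 34 tested chains 24 had a negative interaction (median -0.94), beside 5805 of 11779 genes (median 0.01). This count is not given without library 13, where signs were mixed. There the interaction was positive for Col1a1 (1.88), Col4a2 (1.88) and Lamc1 (0.83). It was negative for Col2a1 (-2.32), Col4a6 (-1.41) and Lama5 (-0.97), with standard errors from 0.71 to 2.18 over these chains. None passed in edgeR. The chains with an unadjusted p below 0.05 were Col1a2 (-3.28, SE 1.32), Col3a1 and Col9a1, all on the lower side, where 1.72% of all genes had such a p. Without library 13 the Col1a2 interaction was -0.84 (SE 1.07, unadjusted p = 0.444), the unadjusted p of Col3a1 was 0.221 and that of Col9a1 was 0.0366. DESeq2 called no chain here and 0.207% of all genes.

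**Figure D5:**
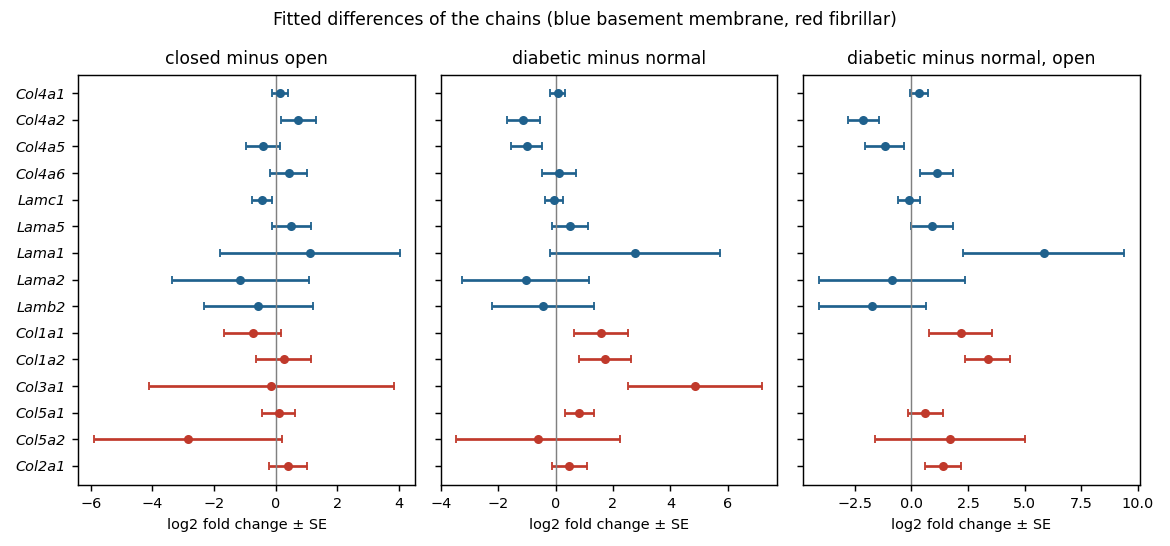
Log2 fold changes from edgeR with their standard errors for 15 basement membrane (blue) and fibrillar (red) chains with a mean of at least 10 counts, for closed minus open tissue, diabetic minus normal dams and diabetic minus normal dams in open tissue. Col3a1, without a count in normal open tissue, is left out of the right panel. The intervals of Col4a1 and Lamc1 are short and near 0, and those of the scarce laminins and of Col3a1 span several units.

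Among the other collagen chains, Col18a1 was at 376 and 516 CPM in diabetic closed, 253 and 532 CPM in diabetic open, 387 and 749 CPM in normal closed and 597 and 703 CPM in normal open libraries. It was lowest in library 13. The means were 419 ± 131 CPM in libraries of diabetic dams against 609 ± 161 CPM in those of normal dams, and the log2 fold change was -0.55 (SE 0.28, unadjusted p = 0.0732, edgeR adjusted p = 0.999). Col22a1, a collagen of tissue junctions, was steady at 12.6 to 28.5 CPM. Col6a2, a chain of beaded microfibrils, ranged from 5.52 to 28.4 CPM, and Col12a1, which binds fibrils, from 0 to 27.7 CPM.

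Col23a1, a transmembrane collagen, was the only one of the 34 tested chains whose 4 libraries of diabetic dams all lay above the 4 of normal dams. Its levels were 8.33 and 15.8 CPM in diabetic closed, 47.4 and 11.7 CPM in diabetic open, 3.74 and 5.77 CPM in normal closed and 5.73 and 0.176 CPM in normal open libraries. The log2 fold change was 2.28 (SE 1.00, unadjusted p = 0.0431, edgeR adjusted p = 0.999). Without library 13 it was 1.57 (SE 1.11, unadjusted p = 0.181). Of all genes tested, 2.48% were higher in every library of diabetic dams in this way. No tested chain was separated the other way, or between closed and open tissue. No share of all genes is given here for these separations, so their absence cannot be read as a trait of the chains. Col9a1, a chain that decorates type II fibrils, had 30.9 CPM in library 13 and 19.9 CPM in library 14, the diabetic open libraries. It was at 1.98 and 7.39 CPM in diabetic closed, 8.90 and 0.296 CPM in normal closed and 0 and 0.353 CPM in normal open libraries. Both diabetic open libraries were above all 6 others, as they were in the sum of the blood markers, which was mostly Hba-x. The part of blood cells was not tested. Col9a1 was picked for its DESeq2 call.

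Genes that work with these chains were taken from lists of basement membrane partners, matrix receptors, collagen processing enzymes, and matrix proteases with their inhibitors. None passed in edgeR or DESeq2 for closed against open tissue or for diabetic against normal dams, where DESeq2 called 0.0764% and 0.314% of all genes. DESeq2 called 0.304% for closed against open tissue within normal dams, 0.472% within diabetic dams and 0.0170% for diabetic against normal dams in closed tissue, with no collagen or laminin chain among them. Of the companion genes, DESeq2 called 2 receptors higher with diabetic than normal dams in open tissue. Itgb1 (adjusted p = 0.0463) was 1 of them, and without library 13 its adjusted p was 0.194. The other was Dag1, which encodes the laminin receptor dystroglycan and was picked for its DESeq2 calls. Dag1 was at 9.12 and 6.56 CPM in diabetic closed, 19.7 and 6.69 CPM in diabetic open and 8.90 and 10.1 CPM in normal closed libraries, and had no count in either normal open library. Its DESeq2 adjusted p was 0.000699 for dams in open tissue, 0.00962 for closed against open tissue in normal dams and 0.0244 for the interaction. Without library 13 the interaction no longer passed in DESeq2. With all 8 libraries no edgeR adjusted p of Dag1 was below 0.452 in these 3 comparisons. For diabetic against normal dams, 12 of 16 tested basement membrane partners had a positive fold change (median 1.05), beside 6208 of 11779 genes (median 0.04). The median standard error of these partners was 1.88, larger than their median fold change. Sparc, a collagen-binding matrix protein, was at 33.9 and 18.8 CPM in diabetic closed, 48.9 and 29.7 CPM in diabetic open, 7.48 and 11.1 CPM in normal closed and 12.5 and 18.3 CPM in normal open libraries. All 4 libraries of diabetic dams were above those of normal dams, with a log2 fold change of 1.41 (SE 0.43, unadjusted p = 0.0075, edgeR adjusted p = 0.999). Agrn, a heparan sulfate proteoglycan and the most abundant partner, averaged 267 ± 83.4 CPM in the 4 libraries of diabetic dams against 428 ± 129 CPM in the 4 of normal dams (log2 fold change -0.66, unadjusted p = 0.0274, edgeR adjusted p = 0.999). Tinagl1 had an unadjusted edgeR p of 0.0348, with 16.2 CPM in library 13, 2.38 CPM in library 15 and 0 elsewhere. It passed the filter only through libraries of diabetic dams, so this p gives no support for a difference. Fbln1, which binds laminin and nidogen, ranged from 45.5 to 93.4 CPM.

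Of 8 tested receptors 7 had a positive fold change for diabetic against normal dams (median 0.25), beside 6208 of 11779 genes (median 0.04). The median standard error of these receptors was 1.90. Itgb1, the beta subunit of most laminin and collagen integrins, was at 159 and 188 CPM in diabetic closed, 284 and 271 CPM in diabetic open, 131 and 154 CPM in normal closed and 131 and 144 CPM in normal open libraries. Every library of diabetic dams was higher, by 0.63 on the log2 scale (SE 0.21, unadjusted p = 0.0117, edgeR adjusted p = 0.999). Itga3, an alpha subunit for laminins, lay between 3.53 and 16.9 CPM. Of 22 tested processing genes 11 were positive (median 0.10), and none had an unadjusted p below 0.05. Their most abundant members were Glt25d1, which adds sugars to collagen hydroxylysine, at 686 to 1085 CPM, and Serpinh1, the collagen chaperone, at 56.9 CPM in library 16 and 342 to 1111 CPM in the other 7. Library 13 had the highest Serpinh1 level, as it had the highest Col1a2 level. Among 12 tested proteases and inhibitors, 8 had a negative fold change for closed against open tissue (median -0.24), beside 5240 of 11779 genes (median 0.07). The gelatinase Mmp2 averaged 25.2 ± 7.20 CPM in the closed libraries against 63.2 ± 34.9 CPM in the open ones (edgeR unadjusted p = 0.00783). Its open libraries ran from 28.8 CPM in library 09 to 111 CPM in library 13. Closed library 16 had 33.3 CPM, so the regions overlapped. Adamts1, which cuts proteoglycans, averaged 74.1 ± 13.1 CPM in closed against 128 ± 40.0 CPM in open libraries (edgeR unadjusted p = 0.0217). The SD are over 4 libraries each, and the edgeR adjusted p was 1.00 for both. Of all genes, 1.01% had an unadjusted edgeR p below 0.05 on the lower side in this comparison.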

How the data were processed

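The authors deposited whole-number tag counts for each gene symbol, 1 file for each of 8 SOLiD SAGE libraries made from 7 ng of RNA per the labels' protocols. The submitters' processing notes name mm9 as build. How tags were aligned and counted, and whether strand was used, is not stated there, so overlapping genes are uncertain. Intervals and limits cover counting error only. R 4.3.3 was used. The main test was edgeR 4.0.16 (quasi-likelihood F test, TMM, filterByExpr with minimum count 10 and minimum total 15, Benjamini-Hochberg adjustment over 11779 genes). DESeq2 1.42.0, limma 3.58.1 (voom), no filter, other scaling and leaving out each library were alternatives, and DESeq2 without library 13 was added after seeing the data. Region and dam were tested in an additive model, other contrasts in a model of 4 groups. Standard errors were derived from the F statistic. The gene tests were tested on simulated data. Members and lists were chosen with earlier results of these data known. Named genes were the Col4, laminin and fibrillar chains with a mean of at least 10 counts, the 5 most abundant other chains and those at an unadjusted p below 0.05. 1 of these chains is not reported here. Of each companion list, they were the 2 most abundant genes and up to 3 with such a p.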

Additional observations from a re-analysis of the deposited data

Results flagged for a closer look

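In groups of 4 libraries, a single library was looked for that stood far from the other 3. This was the case in 17 of 72 groups, of which 8 concerned diabetic open library 13. The limit used is passed by chance in about 1 in 20 groups only where values have a Gaussian spread. It was applied to CPM levels, some of them of scarce chains, which need not have such a spread. The 17 flags therefore cannot be read against that rate. The groups share libraries and genes, so these flags are not independent.

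Library 13 was high among the open and among the diabetic libraries for Col1a2 (195 CPM), for Col3a1 (88.9 CPM) and for the summed fibrillar chains (385 CPM). It was high among the open libraries for Col1a1 (56.1 CPM), and among the diabetic libraries for Col5a2 (8.47 CPM). Normal closed library 11 was high among the libraries of normal dams for Col1a2 (60.9 CPM) and Col3a1 (3.21 CPM), and among the closed libraries for Col5a2 (1.78 CPM). Normal closed library 12 was high among the libraries of normal dams for Col2a1 (35.8 CPM) and Lama1 (2.37 CPM), and low among the closed libraries for the summed fibrillar chains (70.9 CPM). Normal open library 10 was high among the libraries of normal dams for Lamb2 (7.23 CPM) and low among the open libraries for Col5a1 (5.47 CPM). Diabetic open library 14 was high among the open libraries for Lama1 (8.12 CPM).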

How the results depend on the processing

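No paired analysis was possible because the labels do not say whether open and closed tissue shared embryos. A pairing may exist that the models leave out. In the order closed against open, diabetic against normal dams, interaction, closed against open within normal and within diabetic dams, and diabetic against normal dams in open and in closed tissue, DESeq2 called 9, 37, 22, 33, 47, 199 and 2 genes where edgeR called 0. Without library 13 DESeq2 called 154, 101, 128, 43, 281, 380 and 1. Without a low-count filter edgeR called 29, 89, 23, 22, 41, 138 and 11, and of the chains 2 for dams, 2 for the interaction and 3 for open tissue. The limma-voom test called 1 gene for the interaction, within diabetic dams and in open tissue. Leaving out 1 library in edgeR gave 0 to 3, 0 to 2, 0 to 9, 0 to 18, 0 to 21, 0 to 61 and 0 to 3 genes, and 0 to 2 chains in open tissue, against 3 in DESeq2. The cause was not tested.

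Signs turned for scarce or small differences. For closed against open tissue these were, on the log2 scale, Col3a1 in DESeq2 (1.5) and in the group model (1.76), and Lama2 (0.19), Lamb2 (0.13) and Col1a2 (-0.33) in limma-voom. DESeq2 without library 13 turned Lama2 (0.47), Col1a1 (0.51), Col3a1 (3.93), Col5a1 (-0.0041) and Col5a2 (0.38). For diabetic against normal dams limma-voom turned Lama2 (0.043), Lamb2 (0.098) and Col5a2 (0.077), and DESeq2 without library 13 turned Col4a1 (-0.20) and Col4a6 (-0.31). Leaving out 1 library in edgeR gave, for closed against open tissue, -0.043 to 0.38 for Col4a1, -0.45 to 3.85 for Lama1, -2.65 to 0.39 for Lama2, -1.13 to 0.95 for Lamb2, -1.51 to 0.53 for Col1a1, -0.55 to 1.56 for Col1a2, -0.16 to 0.88 for Col2a1, -3.13 to 3.66 for Col3a1, -0.16 to 0.69 for Col5a1 and -5.76 to 0.24 for Col5a2. For diabetic against normal dams it gave -0.18 to 0.25 for Col4a1, -0.29 to 0.65 for Col4a6, -2.61 to 0.43 for Lama2, -0.87 to 1.10 for Lamb2, -0.29 to 0.14 for Lamc1 and -4.17 to 1.87 for Col5a2. Summed levels moved as well. Without its most abundant gene, the laminin sum gave 0.18 for region and 0.51 for dams, and the Col4 sum -0.42 for dams. As a mean of log2 CPM the laminins gave 0.75 and 0.52, the fibrillar chains 0.59 and 0.51, and the Col4 chains -0.55 for dams. Leaving out 1 library, the fibrillar sum gave -0.84 to 0.71 for region and 0.54 to 1.65 for dams. The cause of these changes was not tested.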
